A study of Mus musculus with 8 samples.

Results

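The genes described are 10 genes of apolipoproteins and lipoprotein assembly: Apoa1, Apoa2, Apoa4, Apoa5, Apob, Apoc1, Apoc3, Apoe, Apoh and Mttp. They were taken by gene name from a count table of 56748 mouse genes, and all 10 were among the 14279 genes that passed the filter on low counts. Messenger RNA was sequenced from mouse primary hepatocytes grown for 24 h on collagen-coated hydrogels of 1 kPa (soft) or 20 kPa (stiff), with 2 libraries in each of the 4 groups. All donor mice were C57BL/6J with both floxed Yap and floxed Taz alleles, 7 to 8 weeks old, and received an adeno-associated virus 10 days before the cells were isolated. In the knockout (KO) the virus carried Cre under the TBG promoter, which is active in hepatocytes (AAV8-TBG-Cre), and in the wild type (WT) it carried no Cre (AAV8-TBG-Null), so the wild type has the floxed alleles too. Nothing in the labels ties the 2 libraries of a group to separate mice, so p-values measure only the spread between these libraries.

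Lipoproteins carry fat and cholesterol in blood inside a shell of phospholipid and apolipoproteins. In hepatocytes apolipoprotein B, the non-exchangeable scaffold of very low density lipoprotein (VLDL), is loaded with triglyceride in the endoplasmic reticulum by microsomal triglyceride transfer protein, encoded by Mttp. Apolipoproteins A-I and A-II are the main proteins of high density lipoprotein (HDL), while the small exchangeable C apolipoproteins and apolipoproteins A-V and E govern lipolysis in plasma and uptake by receptors.

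The libraries held 18324083 to 26442310 counts, and the 10 genes took 2.05% to 2.26% of them in each library. Yap1 was lower in all 4 knockout libraries (28.4 to 31.8 normalized CPM, counts scaled to a common library size) than in the 4 wild-type libraries (95.5 to 140 CPM), and so was Wwtr1, which encodes TAZ (13.7 to 16.6 against 41.5 to 65.2 CPM). Xist had 4818 to 8443 counts and the Y-linked genes Ddx3y, Kdm5d, Eif2s3y and Uty had 0 counts in every library, while the labels name both female and male mice. Of the hepatocyte markers, 8 of 9 were found by symbol and passed the filter. Their summed level, most of it albumin (Alb), was 91024 to 91747 CPM in wild-type cells on the soft hydrogel, 93827 to 95339 CPM on the stiff one and 63142 to 63852 CPM in knockout libraries. The markers did not move together. On the stiff hydrogel 2 of the 8 were called higher in the knockout and 2 lower, against 13.7% and 15% of all tested genes. Ahsg (log2 fold change 0.89) and Asgr1 (0.80) were higher, and Alb (-0.66) and Cps1 (-0.68) were lower. On the soft hydrogel 0 were called higher and 2 lower (Alb at -0.58 and Cps1 at -0.85), against 2.02% and 4.65%. With stiffness in wild-type cells 0 were called higher and 3 lower (Ahsg at -0.76, Asgr1 at -0.82 and Fgb at -0.60), against 10% and 9.26%.

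Sequence upstream of the transcription start is shown for 5 of the genes. They are Mttp, which had the largest stiffness effect of the 10 in wild-type cells, and its partner Apob. The other 3 are genes of A-type apolipoproteins with stiffness effects of either sign. The RefSeq promoter table (GRCm38.p6) has an entry for 8 of the 10 genes, and none for Apoc1 and Apoc3. The 250 bases before each start were read, and the stretch outside exons of protein-coding genes is printed, 5′ to 3′ on the gene's strand. Annotated exons of the gene itself reach into the window for Apob, Apoa1 and Apoa4. Their printed stretches therefore end 29, 50 and 148 bases before the RefSeq start. Capitals mark TATAAA, the TATA box letters.
Mttp, 29 bases at chr3:138143419-138143447, minus strand: acgtcatcggactgcgctaactccaaacc
Apob, 221 bases at chr12:7977427-7977647, plus strand: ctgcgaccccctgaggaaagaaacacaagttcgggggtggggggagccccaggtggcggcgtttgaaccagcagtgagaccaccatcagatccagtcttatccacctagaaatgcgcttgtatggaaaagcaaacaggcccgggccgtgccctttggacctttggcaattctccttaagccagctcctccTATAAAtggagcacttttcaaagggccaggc
Apoa1, 200 bases at chr9:46228380-46228579, plus strand: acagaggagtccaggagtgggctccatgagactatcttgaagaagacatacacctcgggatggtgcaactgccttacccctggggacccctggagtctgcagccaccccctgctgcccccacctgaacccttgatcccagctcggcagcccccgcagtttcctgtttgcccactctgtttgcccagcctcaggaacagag
Apoa4, 102 bases at chr9:46240594-46240695, plus strand: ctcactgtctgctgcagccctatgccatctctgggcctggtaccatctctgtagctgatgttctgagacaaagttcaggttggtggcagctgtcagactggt
Apoa2, 250 bases at chr1:171224804-171225053, plus strand: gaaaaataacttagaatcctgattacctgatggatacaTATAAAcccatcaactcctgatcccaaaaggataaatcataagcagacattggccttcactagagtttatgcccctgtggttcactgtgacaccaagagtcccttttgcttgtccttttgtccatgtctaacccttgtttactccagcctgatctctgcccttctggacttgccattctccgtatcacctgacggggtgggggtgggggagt

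The other 221 bases before the Mttp start lie in exons of Trmt10a, a transfer RNA methyltransferase gene that runs on the other strand. In the 12 entries of these genes, 6 letter strings were searched on both strands of the 250 bases. TATAAA was in entries of 4 genes (Apoa2, Apoa5, Apob and Apoe) and in 12.4% of all 32851 promoters. GGAATG, the core that TEAD factors bind, was in entries of Apoa4 and Apoe and in 12.6% of promoters. The Apoa4 match, at bases -21 to -16 from the start, lies in an Apoa4 exon and outside the printed stretch. AGGTCA, a nuclear receptor half-site, was in entries of Apoa2 and Apoh and in 14% of promoters, and GTTAAT, a half-site of HNF1, was in an entry of Apoe and in 6.43%. CAAAGTCCA, a core bound by HNF4, and CAAAGGTCA, which contains AGGTCA, were in none of the 12 entries, against 0.384% and 0.426% of promoters. None of the 6 strings was in the Mttp or Apoa1 window. A match is a string of letters and not a mapped binding site.

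Per length, the 10 genes kept 1 order in all 4 groups, and neighbours in that order did not overlap in any group. The scale is normalized CPM per kilobase of the deposited gene length. With another length close neighbours such as Apoa2 and Apoa1 can change places. Their deposited lengths are 537 and 1236 bases, and their longest GENCODE M21 transcripts have 518 and 1035 bases. In wild-type cells on the soft hydrogel Apoe, the receptor ligand of remnant particles, was highest at 5049 ± 172 (SD, n = 2 for every mean ± SD). Apoa2 followed at 3231 ± 14.5 and Apoa1 at 3041 ± 89.2. Apoc1, an inhibitor of lipoprotein uptake, stood at 1403 ± 202 and Apoc3, an inhibitor of lipoprotein lipase, at 871 ± 23.4. Apoh, the phospholipid-binding beta-2-glycoprotein I, had 603 ± 4.87 and Apoa4, a lipid-binding apolipoprotein of triglyceride-rich particles and HDL, had 446 ± 5.62. Apob, at 184 ± 5.71, was above Mttp at 50.1 ± 0.466 and Apoa5, an activator of lipolysis, at 13.1 ± 0.751. In that group Apoe ranked 5th, Apob 260th and Apoa5 3461st per length among the 14279 tested genes. Without division by length Apob, whose deposited length of 13934 bases is the longest of the 10, was 3rd of the 10 rather than 8th.

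**Figure D1:**
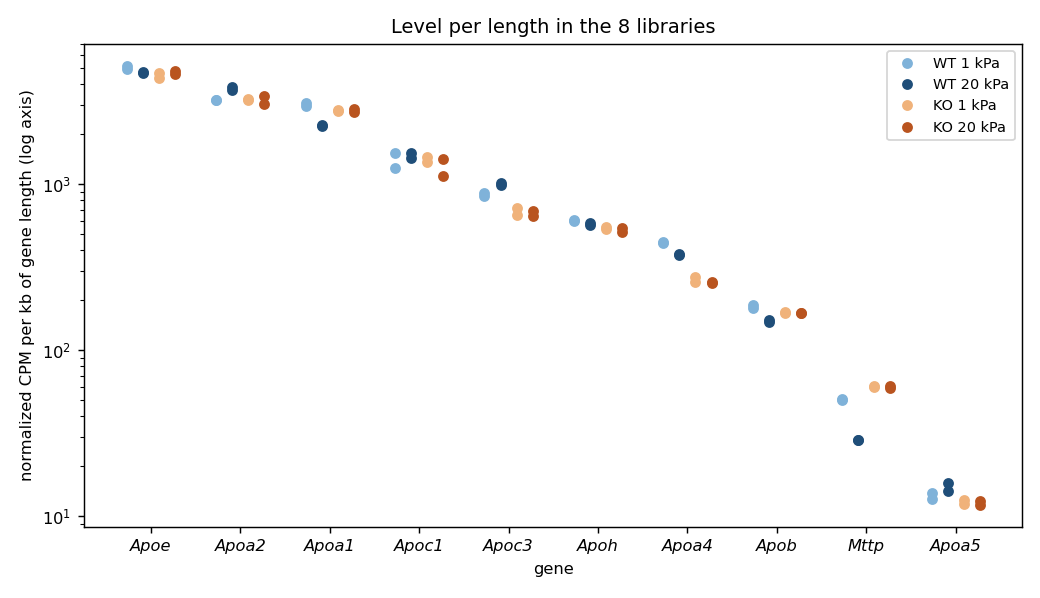
Level of each gene in the 8 libraries, in normalized CPM per kilobase of gene length on a log axis, with 1 point per library and 1 colour per group. The order from Apoe to Apoa5 was the same in each group, and Mttp had its lowest points in the 2 wild-type libraries on the stiff hydrogel (28.5 and 28.8).

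Whether matrix stiffness alters these genes was asked first in wild-type hepatocytes. On the stiff hydrogel Mttp fell by 42.8%, while the apolipoprotein genes stayed under the fold limit given next: Apoa1 was 25.7% lower, Apob 18.6% lower and Apoa4 15.3% lower, and Apoa2 was 16.8% and Apoc3 15.2% higher. A gene was called changed when the adjusted p of edgeR's quasi-likelihood test was under 0.05 (Benjamini-Hochberg over the 14279 genes) and the absolute log2 fold change was over 0.5. By this rule 0 of the 10 genes were called higher and 1 was called lower, Mttp, against 19.3% of all tested genes called in either direction (10% higher, 9.26% lower). By adjusted p alone 2 genes were higher and 5 lower, against 41% of tested genes (21.1% higher, 20% lower). The 2 groups did not overlap for 9 of the 10 genes, against 68.9% of tested genes, and the median log2 fold change was -0.079 for the 10 genes and -0.0087 for all tested genes.

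Mttp had 309 and 313 CPM on the soft and 177 and 179 CPM on the stiff hydrogel in wild-type cells. Both stiff libraries were below both soft libraries, and the gap between the groups was wider than that between libraries of a group. The log2 fold change was -0.81 ± 0.040 (SE), with an adjusted p of 1.22e-11 in edgeR, and stayed between -0.82 and -0.79 over 20 settings of the analysis. Some of these settings, such as other fold limits, could not move this value. Apob had 2619 and 2506 CPM on the soft and 2061 and 2111 CPM on the stiff hydrogel, without overlap. Its log2 fold change of -0.30 ± 0.029 (adjusted p = 1.96e-07) was below the fold limit.

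Among the HDL apolipoproteins the directions differed. Apoa1, the acceptor of cholesterol from ABCA1, had 3680.2 and 3836 CPM on the soft and 2781 and 2799.8 CPM on the stiff hydrogel in wild-type cells, a log2 fold change of -0.43 ± 0.030 (adjusted p = 1.28e-09). Apoa2 went the other way, from 1729.8 and 1741 CPM to 2067 and 1988 CPM, with a log2 fold change of 0.22 ± 0.038 (adjusted p = 1.14e-04). Neither gene's groups overlapped, and neither passed the fold limit. Apoa4 had 816 and 802 CPM on the soft and 694 and 677 CPM on the stiff hydrogel, a log2 fold change of -0.24 ± 0.038 (adjusted p = 5.06e-05).

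The genes of lipolysis and uptake had small differences. Apoc3 had 900.1 and 866 CPM on the soft and 1027 and 1008 CPM on the stiff hydrogel in wild-type cells, a log2 fold change of 0.20 ± 0.045 (adjusted p = 0.0013). Apoe had 10535 and 11056 CPM on the soft and 10036 and 10216 CPM on the stiff hydrogel, and its log2 fold change of -0.092 ± 0.030 passed at an adjusted p of 0.020 but not in DESeq2 (adjusted p = 0.10) or without wild-type soft replicate 2 (adjusted p = 0.21), wild-type stiff replicate 1 (0.18) or wild-type stiff replicate 2 (0.062). Apoa5 (0.18 ± 0.079), Apoc1 (0.089 ± 0.085) and Apoh (-0.066 ± 0.037) had adjusted p-values of 0.072, 0.44 and 0.17. Apoc1 was the only one of the 10 whose wild-type groups overlapped, with 1149.75 and 937 CPM on the soft and 1148 and 1074 CPM on the stiff hydrogel. Its adjusted p was 0.021 without wild-type soft replicate 1, at a log2 fold change of 0.25, and 0.020 with no filter on low counts, at 0.098. That of Apoa5 was 0.043 without wild-type stiff replicate 2, at 0.27.

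**Figure D2:**
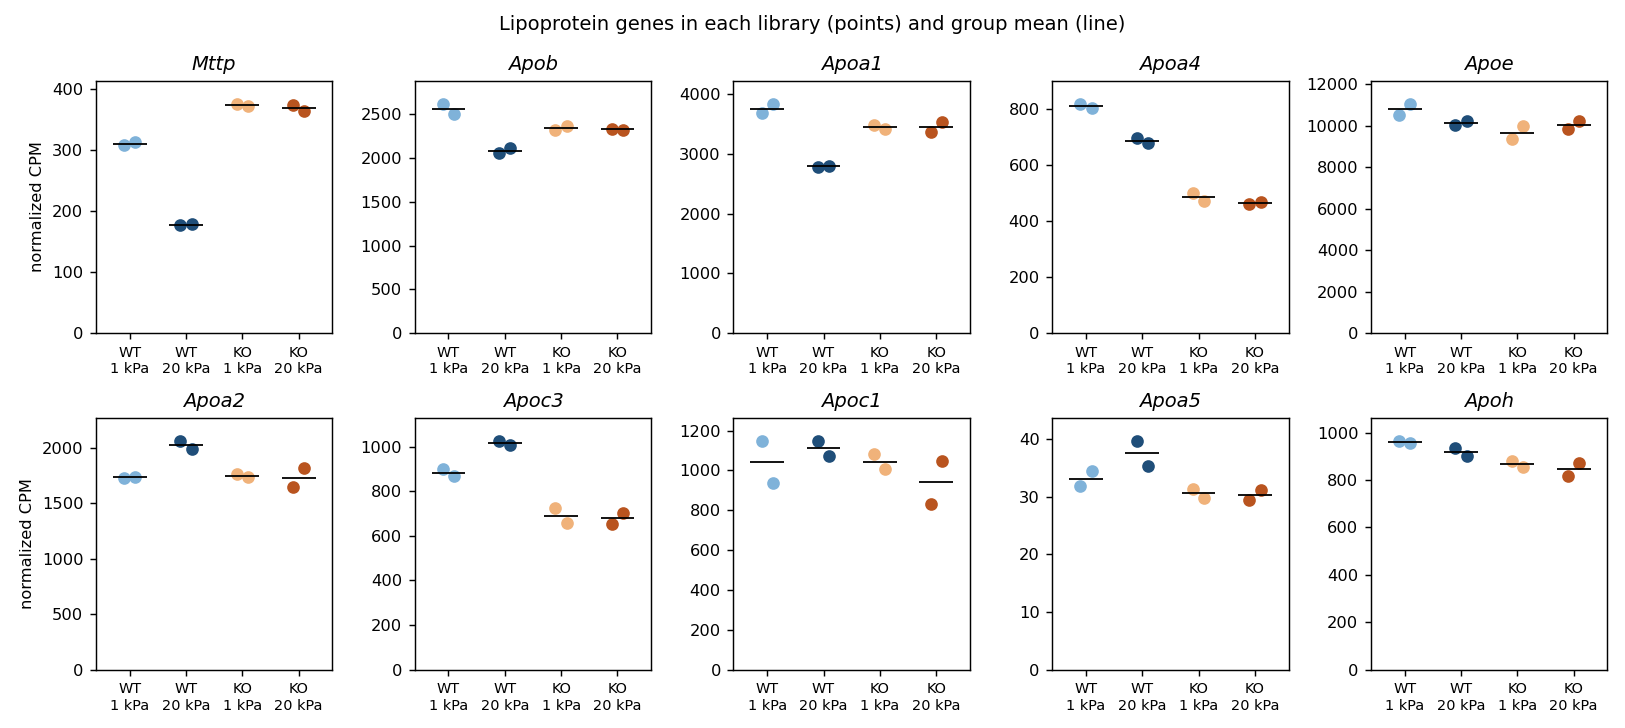
Normalized CPM of the 10 genes in each library (points, 2 per group) with the group mean (line) and a vertical axis from 0 in each panel. Mttp was at 177 and 179 CPM in wild-type cells on the stiff hydrogel and between 309 and 376 CPM in the other 6 libraries.

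In the knockout the same comparison gave no called gene among the 10, against 0.021% of all tested genes (0.014% higher, 0.007% lower). None had an adjusted p under 0.05 or an unadjusted p under 0.05 in edgeR, against 7.54% of tested genes by the unadjusted p, and DESeq2 called none of the 10 either. With no filter on low counts Apoc1 had an adjusted p of 7.87e-04 at a log2 fold change of -0.16, under the fold limit. The groups did not overlap for 1 of the 10, Apoa4, against 38.1% of tested genes. Mttp had 376 and 373 CPM on the soft and 375 and 365 CPM on the stiff hydrogel, overlapping values with a log2 fold change of -0.019 ± 0.039. Apoa1 stood at 3480.1 and 3414 CPM on the soft and 3371 and 3537 CPM on the stiff hydrogel, and Apob at 2324 and 2367 CPM against 2335 and 2322 CPM. The 10 log2 fold changes ran from -0.15 ± 0.085 for Apoc1 to 0.055 ± 0.030 for Apoe, with a median of -0.018.

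The difference of the stiffness effect between the genotypes (knockout minus wild type) was tested as the interaction in the same fit. It was called for 1 gene, Mttp, at a log2 difference of 0.79 ± 0.055 (adjusted p = 4.41e-09), against 16.8% of all tested genes called (8.64% positive, 8.21% negative). By adjusted p alone it was positive for 5 genes (Mttp, Apoa1, Apob, Apoa4 and Apoe) and negative for 2 (Apoa2 and Apoc3), against 29.4% of tested genes (15.3% positive, 14.1% negative). Apoa1 had 0.43 ± 0.042 and Apob 0.29 ± 0.042, and Apoa2 had -0.24 ± 0.054. Apoc3 had -0.23 ± 0.064, Apoa4 0.18 ± 0.054 and Apoe 0.15 ± 0.043, and these 3 each rose above an adjusted p of 0.05 in some edgeR fits that left out a library. For Apoc3 this was knockout soft replicate 1 (0.086). For Apoe they were wild-type soft replicate 2, wild-type stiff replicate 1, knockout soft replicate 1 and knockout stiff replicate 2 (0.068 to 0.12), and DESeq2 gave 0.072. For Apoa4 they were either wild-type stiff library, knockout soft replicate 2 and knockout stiff replicate 2 (0.051 to 0.13). Apoc1 (-0.24 ± 0.12, adjusted p = 0.15) went the other way, with an adjusted p of 0.0055 without wild-type soft replicate 1 (-0.41), 0.0022 without knockout stiff replicate 2 (-0.42) and 9.65e-07 with no filter on low counts (-0.26).

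**Figure D3:**
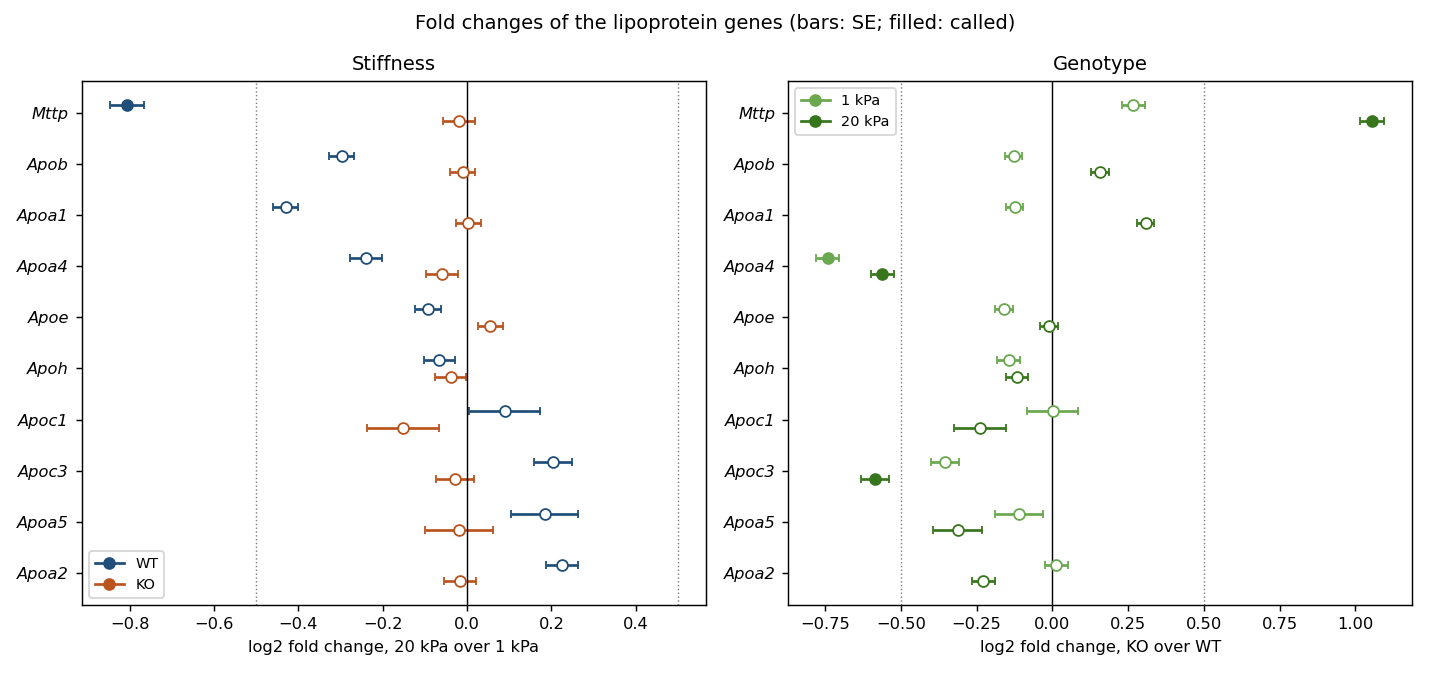
Log2 fold changes of the 10 genes with their SE, for stiff over soft in each genotype (left) and knockout over wild type on each hydrogel (right), with filled points for called genes and dotted lines at the fold limit of 0.5. On the left only Mttp in wild-type cells (-0.81) lies beyond the limit, and on the right Mttp on the stiff hydrogel lies at 1.06 while Apoa4 lies at -0.74 and -0.56 and Apoc3 on the stiff hydrogel at -0.59.

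The comparison of the genotypes on 1 hydrogel shares its libraries with the comparisons of stiffness, so its values are given side by side with them and are no separate evidence. On the soft hydrogel 0 of the 10 genes were called higher and 1 lower in the knockout, against 6.67% of tested genes called in either direction (2.02% higher, 4.65% lower). By adjusted p alone 1 was higher and 6 were lower, against 18.4% of tested genes (7.48% higher, 10.9% lower). The called gene was Apoa4, with 499 and 469.6 CPM in the knockout and 816 and 802 CPM in the wild type. It fell by 40.2%, a log2 fold change of -0.74 ± 0.038 (adjusted p = 9.35e-11). The groups of 8 of the 10 genes did not overlap, against 56.2% of tested genes. Apoc3 was lower in the knockout without passing the fold limit, at 724 and 658 CPM (log2 fold change -0.35 ± 0.045, adjusted p = 1.23e-05), and Mttp was higher (0.27 ± 0.039, adjusted p = 5.57e-05).

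On the stiff hydrogel 1 of the 10 genes was called higher in the knockout and 2 were called lower, against 28.7% of tested genes called (13.7% higher, 15% lower). By adjusted p alone 3 were higher and 6 lower, against 51.1% of tested genes (25.4% higher, 25.7% lower). Mttp rose 2.08-fold, a log2 fold change of 1.06 ± 0.040 (adjusted p = 1.25e-13). Apoc3 fell by 33.4%, with 653 and 703 CPM in the knockout (log2 fold change -0.59 ± 0.045, adjusted p = 3.51e-09), and Apoa4 fell by 32.2%, with 461 and 468 CPM (-0.56 ± 0.038, adjusted p = 5.74e-10). Below the fold limit Apoa1 was higher at 0.31 ± 0.030 and Apob at 0.16 ± 0.029, while Apoa5 was lower at -0.31 ± 0.080. Apoa5 had 29.4 and 31.1 CPM in the knockout against 39.7 and 35.4 CPM in the wild type, and its adjusted p of 0.0032 became 0.058 without wild-type stiff replicate 1. Apoc1 had -0.24 ± 0.085 (adjusted p = 0.026), with 0.19 in DESeq2. The groups of 9 of the 10 genes did not overlap, against 74.5% of tested genes. Apoe was the exception, at 9859 and 10244 CPM in the knockout.

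Hepatocyte markers moved both ways in the same knockout libraries, with Alb and Cps1 lower on both hydrogels and Ahsg and Asgr1 higher on the stiff one, and their part in these results was not tested. Apoa4 and Apoc3 were lower in the knockout on both hydrogels, whereas Mttp and Apoa1 in the knockout were nearer to the wild type on the soft than on the stiff hydrogel. For Mttp all 4 knockout libraries (365 to 376 CPM) lay above both wild-type libraries on the soft hydrogel (309 and 313 CPM). For Apoa1 all 4 (3371 to 3537 CPM) lay below the wild-type soft libraries and above the wild-type stiff ones.

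In the genome 4 of the 10 genes stand next to each other on chromosome 9, in the order Apoa1, Apoc3, Apoa4 and Apoa5. The deposited table, whose build is not settled, places them between 46139878 and 46183217, with Apoc3 on the minus strand and the others on the plus strand. Their wild-type stiffness values had both signs, with Apoa1 and Apoa4 lower and Apoc3 higher by adjusted p. Apoc3 lies 2467 bases from Apoa1 and 5060 bases from Apoa4. On chromosome 7 Apoe and Apoc1 are 3449 bases apart, with log2 fold changes of -0.092 and 0.089. Apoc4, in the same cluster, had 71.5 and 77.3 CPM on the soft and 64.6 and 67.5 CPM on the stiff hydrogel (-0.17 ± 0.058, adjusted p = 0.025), and Apoc2, the activator of lipoprotein lipase, had 1 to 13 counts a library. Of the 64-base windows of the longest Apoc2 transcript 88% were shared with the gene model Gm44805, so this count may miss reads that fit both and its level is uncertain. In the deposited positions Mttp, Apoh and Apoa4 overlap a gene with counts on the other strand. Trmt10a at the Mttp end had 268 to 402 counts, against 3519 to 9636 for Mttp. Reads of both strands can be told apart only if the counting used strand, which the sources used here do not say. No 64-base window of the longest transcript of the 10 genes occurred in a transcript of another gene.

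Of 6 tested genes of other apolipoproteins and their editing enzyme, 0 were called for stiffness in wild-type cells, against 19.3% of all tested genes, and 4 were lower by adjusted p, against 20%. Apobec1, the enzyme that edits Apob messenger RNA, had a log2 fold change of -0.37 ± 0.091 (adjusted p = 0.0032). In the knockout 2 of the 6 were called lower on each hydrogel, against 4.65% of tested genes on 1 kPa and 15% on 20 kPa. Apof, an inhibitor of lipid transfer between lipoproteins, had 225 and 223 CPM in the wild type and 120 and 123 CPM in the knockout on the soft hydrogel (-0.88 ± 0.046), and its value on the stiff hydrogel was -0.56 ± 0.046. Apon had -1.26 ± 0.085 and -0.95 ± 0.087. The wild-type and knockout libraries did not overlap for either gene on either hydrogel. This held for 5 of the 6 genes on each hydrogel, against 56.2% of tested genes on 1 kPa and 74.5% on 20 kPa. Apod had 0 counts in every library.

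A list of 19 tested genes for VLDL lipidation and export, without Mttp, was chosen with earlier results known. Not all of its genes act in VLDL export itself. For stiffness in wild-type cells 0 of the 19 were called higher and 9 lower, against 10% and 9.26% of all tested genes. Their median log2 fold change was -0.44, against -0.0087 over all tested genes. Soat2, which esterifies cholesterol for VLDL, had the lowest value of the list, falling from 84.3 and 86.1 CPM to 32.3 and 30.4 CPM (-1.44 ± 0.069, adjusted p = 8.38e-12). Tm6sf2, which acts in VLDL lipidation, fell from 31.1 and 34.5 CPM to 18.1 and 15.9 CPM (-0.94 ± 0.087). The lipid droplet gene Cidec (-1.37 ± 0.10), the VLDL secretion gene Smlr1 (-1.32 ± 0.15) and Pla2g12b (-0.88 ± 0.073) were also called lower, as were the carboxylesterase genes Ces1d and Ces1g, the triglyceride synthase gene Dgat2 (-0.71 ± 0.047) and Mia3 (-0.58 ± 0.045), which helps load large cargo at the exit sites of the endoplasmic reticulum. P4hb, the protein disulfide isomerase that forms the small subunit of the transfer complex with Mttp, had -0.17 ± 0.030 (adjusted p = 1.77e-04). The highest value of the list was that of Tmem41b, at 0.15 ± 0.065 (adjusted p = 0.077), and 14.4% of the windows of its longest transcript were shared with a pseudogene-like model, Gm6223.

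**Figure D4:**
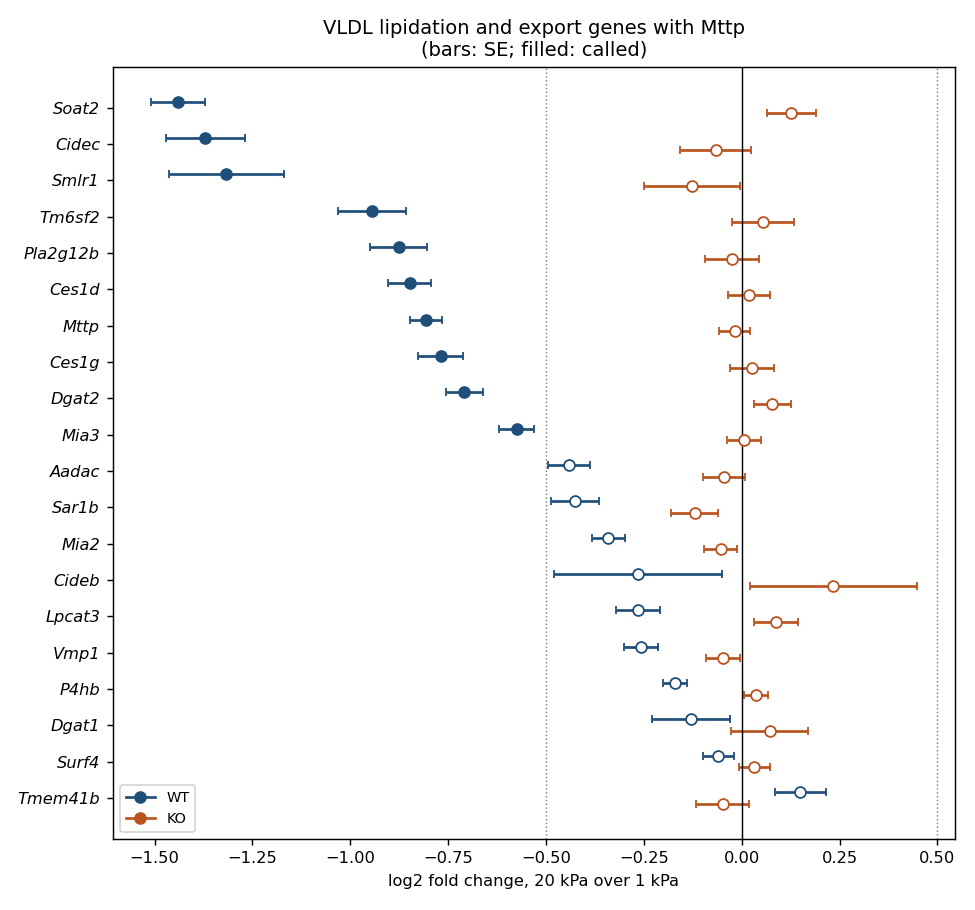
Log2 fold changes of stiff over soft with their SE for Mttp and 19 genes listed for VLDL lipidation and export, in wild-type and knockout cells. Filled points mark called genes and dotted lines the fold limit of 0.5. In wild-type cells 9 of the 19 and Mttp lie below -0.5, and in the knockout the values run from -0.13 to 0.23 with none called.

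In the knockout 0 of the 19 were called for stiffness in either direction, against 0.021% of all tested genes, with a median log2 fold change of 0.019. The interaction was called positive for 9, against 8.64% of tested genes. On the stiff hydrogel 7 of the 19 were called higher in the knockout than in the wild type, against 13.7% of tested genes, with Soat2 at 1.76 ± 0.068 and Tm6sf2 at 1.12 ± 0.086. On the soft hydrogel 1 was called higher, against 2.02% of tested genes, Smlr1 at 0.51 ± 0.13, and it lost the call without wild-type soft replicate 2 (0.44) or knockout soft replicate 1 (0.45).

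Of 18 transcription factors of apolipoprotein genes, 0 were called higher and 6 lower for stiffness in wild-type cells, against 10% and 9.26% of all tested genes. In the knockout 0 were called, where 0.021% of all tested genes were. Hnf4a, a nuclear receptor that drives many liver genes, fell from 379 and 365 CPM to 186 and 193 CPM (-0.98 ± 0.042, adjusted p = 2.44e-12), and had 414 to 437 CPM in the 4 knockout libraries. Creb3l3, a membrane-bound factor of triglyceride metabolism, fell from 208 and 205 CPM to 102 and 97.3 CPM (-1.05 ± 0.047). The others were Cebpa (-0.99 ± 0.075), Xbp1 (-0.94 ± 0.040), Srebf1 (-0.67 ± 0.055) and Ppara (-0.61 ± 0.17). Ppara lost its call without wild-type soft replicate 2 or wild-type stiff replicate 1, with adjusted p-values of 0.081 and 0.086. Nr1h3, which encodes the sterol sensor LXRα, had 50.7 and 56.8 CPM on the soft and 39.3 and 40.8 CPM on the stiff hydrogel, a log2 fold change of -0.42 ± 0.066 (adjusted p = 5.20e-05) below the fold limit. On the stiff hydrogel 6 of the 18 were called higher in the knockout than in the wild type, against 13.7% of tested genes, with Creb3l3 at 1.28 ± 0.047 and Hnf4a at 1.17 ± 0.043.

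Of 12 genes of HDL formation and lipoprotein remodelling, 1 was called higher and 3 lower for stiffness in wild-type cells, against 10% and 9.26% of all tested genes. Lipc, hepatic lipase, fell from 156 and 154 CPM to 84.7 and 79.4 CPM (-0.92 ± 0.053, adjusted p = 1.02e-10), and Angptl4, an inhibitor of lipoprotein lipase, rose from 86.7 and 87 CPM to 207 and 209 CPM (1.26 ± 0.048, adjusted p = 3.79e-13). The other called genes were Angptl8 (-0.87 ± 0.082) and Lpl, lipoprotein lipase (-0.63 ± 0.096), whose value without wild-type stiff replicate 1 was -0.48. Abca1, which loads Apoa1 with cholesterol, had -0.45 ± 0.054 (adjusted p = 1.83e-06), and without wild-type stiff replicate 2 it was called at -0.50. Of 7 tested lipoprotein receptors and their regulators, 0 were called higher and 3 lower, against the same shares. In the knockout 0 genes of either list were called for stiffness, against 0.021% of tested genes. The interaction was called positive for 3 and negative for 1 of the 12, against 8.64% and 8.21% of tested genes. Of the 7 it was called positive for 2 and negative for 0. In wild-type cells Sort1, an intracellular receptor for Apob, fell from 5.58 and 5.44 CPM to 2.31 and 2.24 CPM (-1.28 ± 0.20). Vldlr had -0.62 ± 0.15 and Mylip -1.10 ± 0.39, and Mylip lost its call in DESeq2 (adjusted p = 0.067) and without wild-type soft replicate 2 (0.21), wild-type stiff replicate 1 (0.12) or wild-type stiff replicate 2 (0.097).

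Markers of other liver cells differed between the same groups, at low summed levels apart from the cholangiocyte markers. The summed level of 11 Kupffer cell and macrophage markers was 92.5 to 95.2 CPM in wild-type cells on the soft hydrogel. It was 64.3 to 70.1 CPM on the stiff one and 133 to 138 CPM in the knockout. For stiffness in wild-type cells 6 of the 11 were called lower. This count and the next ones stand against 9.26% of all tested genes called lower and 10% called higher. Of 8 endothelial markers 5 were called lower, with sums of 77.5 to 82.8, 52.7 to 53.0 and 102 to 114 CPM. Of 8 tested stellate cell and fibroblast markers 4 were called lower and 1 higher, with sums of 35.0 to 35.4, 21.9 to 24.1 and 49.0 to 53.5 CPM, and the defining stellate gene Lrat had 0 to 4 counts. Of 4 tested cholangiocyte markers 1 was called higher, Krt19, while Krt7 had 0 to 3 counts and Cftr 0. The sums were 548 to 584, 599 to 602 and 320 to 348 CPM. Spp1 made up most of each, at 507 to 543 CPM in wild-type and 280 to 310 CPM in knockout libraries. On the stiff hydrogel 10 of 11 macrophage, 7 of 8 endothelial and 7 of 8 stellate markers were called higher in the knockout. Called lower were 1 of 8 stellate and 2 of 4 cholangiocyte markers, against 13.7% of all tested genes higher and 15% lower. On the soft hydrogel 5, 2 and 3 were called higher and 2 cholangiocyte markers lower, against 2.02% and 4.65%. Macrophages also express Apoe and Apoc1. The part of these cells in the results was not tested, and in bulk libraries fewer cells of a type and less RNA per cell cannot be told apart.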

How the data were processed

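The deposited table holds raw counts per gene with no normalization. The authors aligned paired-end reads of 150 bp with HISAT2 and counted them with featureCounts, and the submitters' processing notes name HISAT2 2.0.5, DESeq2 1.20.0, edgeR 3.22.5, GATK 4.1.4.1 and mm9. The table's gene starts differed from GENCODE M21 (GRCm38) for all 10 genes, so positions are given as deposited and promoter sequences with the RefSeq build. Counts were filtered with filterByExpr, scaled by TMM and fitted for all 8 libraries with glmQLFit in edgeR 4.0.16 (R 4.3.3, limma 3.58.1), with 4 residual degrees of freedom and a common biological coefficient of variation of 0.0542. CPM were computed over tested genes with TMM factors. SE is the absolute log2 fold change over the square root of F. Alternatives (DESeq2 1.42.0, other scalings, filters and fold limits, each library left out) were run, and the code was tested on simulated data. A count of 0 allowed up to 0.113 to 0.164 CPM, for counting error only. Figures used matplotlib 3.10.9 in Python 3.11.15.

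Replicates of a group differed by more than sampling noise (chi-square per degree of freedom 2.62 to 5.45). The genes and lists were chosen with earlier results of these data known. Besides the 10 genes, the rule named called genes at the extremes of each list in wild-type stiffness, direct partners of the lipoprotein genes, tested genes within 100 kb, and the 3 genes most like a called gene in pattern. Other called genes of a list were named after their values were seen. Some genes of the receptor list are not reported here.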

Additional observations from a re-analysis of the deposited data

Results flagged for a closer look

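The effect of stiffness differed between wild-type and knockout cells for Mttp and for 4 named partner genes. They were called in the interaction term of the edgeR fit over all 14279 genes, as were 16.8% of all tested genes. The other partner genes tested, Apoc2, Apoc4, Apobec1, P4hb, Abca1 and Nr1h3, were not called in it. Mttp had a log2 difference of 0.79 ± 0.055 (SE, adjusted p = 4.41e-09), with wild-type cells at -0.81 and knockout cells at -0.019. Creb3l3 had 1.04 ± 0.065 (adjusted p = 9.43e-10), Hnf4a 0.98 ± 0.059 (5.29e-10) and Tm6sf2 1.00 ± 0.12 (3.30e-06). Lipc had 0.97 ± 0.073 (1.02e-08). Both wild-type stiff libraries were below both wild-type soft libraries for Mttp, Creb3l3, Hnf4a, Tm6sf2 and Lipc. The wild-type groups did not overlap, in either direction, for 68.9% of all tested genes.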

How the results depend on the processing

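The number of the 10 genes called was the same or within 1.5 times the reported one in all 5 comparisons under DESeq2, edgeR on the 4 libraries compared, RLE, upper-quartile and library-size scaling, both filters on low counts, robust empirical Bayes and every fit without a library (fits to 4 libraries were made for all but the interaction). Only the fold limit moved it. With no minimum fold change, stiffness in wild-type cells gave 2 higher and 5 lower, the interaction 5 higher and 2 lower, and knockout against wild type 1 higher and 6 lower on the soft and 3 higher and 6 lower on the stiff hydrogel. With a limit of 1, Mttp was lost in wild-type stiffness (0 lower) and in the interaction (0 higher), and in the genotype comparisons 0 were lower on either hydrogel.

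No value that changed sign was called under either setting, and in absolute size the reported ones were 0.15 (Apoc1 in knockout stiffness) or less. Apoa1 in knockout stiffness was -0.0012 and -0.0056 in DESeq2 on 8 and on 4 libraries, -0.0057 in edgeR on 4, -0.0012 with RLE, -0.0023 with upper-quartile and -0.00090 with library-size scaling, -0.0096 with no filter and -0.0028 where each library needed 10 counts. Apoc1 between genotypes on the soft hydrogel was -5.9e-05 with that last filter, and Apoe on the stiff hydrogel was 0.0070 with upper-quartile and 0.047 with library-size scaling. Without 1 library, Apoc1 ranged from -0.046 to 0.25 in wild-type stiffness, -0.34 to 0.0029 in knockout stiffness and -0.14 to 0.16 between genotypes on the soft hydrogel. In knockout stiffness Apoa1 ranged from -0.040 to 0.034, Apoa2 from -0.097 to 0.051, Apoa5 from -0.067 to 0.020, Apoc3 from -0.10 to 0.038 and Apoh from -0.094 to 0.0044. The Apoh interaction ranged from -0.028 to 0.071 and Apoe between genotypes on the stiff hydrogel from -0.049 to 0.012. The cause was not tested.

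Replicate numbers are shared between groups, and the deviations of same-numbered libraries over all tested genes correlated at -0.10 to 0.042. Noise between libraries can hide a shared source. These values therefore do not settle whether same-numbered libraries share a mouse or a cell preparation. With the replicate number as a block 0 and 1 of the 10 genes were called higher and lower in wild-type stiffness, as without it. Calls lost among the named partner genes were mostly those of Vldlr, Ppara and Mylip, and the Vldlr interaction had an adjusted p of 0.055 with the block. With library size only, Apoa1, Apob and Apoh on the soft hydrogel had adjusted p-values of 0.10, 0.090 and 0.092. With 2 libraries a group, a fit without 1 of them assumes that the lone library varies like the other groups.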

Other observations

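Within 100 kb of the 10 genes, 31 other tested genes were found by the deposited positions, of which 1 was called higher and 4 lower for stiffness in wild-type cells and 0 in the knockout, against 10%, 9.26% and 0.021% of all tested genes. Nectin2, a cell adhesion gene 17456 bases from Apoe, rose (1.07 ± 0.053, adjusted p = 1.42e-11), and Tomm40, which lies between them, had 0.46 ± 0.055 (adjusted p = 1.73e-06) where Apoe had -0.092. Cblc, 79693 bases from Apoe, was called lower (-0.65 ± 0.090). Near Mttp, 1110002E22Rik was called lower at -1.62 ± 0.19 (adjusted p = 1.42e-06), and Trmt10a, whose deposited span overlaps that of Mttp on the other strand, had 0.22 ± 0.10 (adjusted p = 0.11). The other 2 called genes were Cfap126 and Gm47528, which overlaps Apoa4 on the other strand with 4 to 39 counts. Next to the chromosome 9 cluster Sik3 (-0.039 ± 0.056), Zpr1 (-0.15 ± 0.054, adjusted p = 0.029) and Bud13 (0.017 ± 0.14) were not called.

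Of 10036 genes with a mean of at least 100 counts, the 3 whose log2 CPM over the 8 libraries lay closest to Mttp were Dennd11, Sntb2 and Gpd2, with root mean square differences of 0.028, 0.029 and 0.031. The SD of log2 CPM of Mttp itself was 0.47. Their log2 fold changes in wild-type cells were -0.81, -0.80 and -0.78, and in the knockout -0.051, 0.033 and -0.040. The genes were picked for closeness over these same 8 libraries, so values near those of Mttp follow from the choice.

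Lower genes in the knockout on both hydrogels included Pltp, the phospholipid transfer protein (-1.30 ± 0.095 on 1 kPa and -1.47 ± 0.095 on 20 kPa) and Angptl4 (-1.25 ± 0.052 and -2.62 ± 0.053). Both were called on each hydrogel.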
